A study of Homo sapiens with 6 samples.

Results

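The clustered histone genes are the protein-coding genes whose symbols start with HIST1, HIST2, HIST3 or HIST4, and 36 of the 52408 genes in the deposited count table met that rule. They divided into 6 genes of the linker histone H1 and 9 of H2A, 10 of H2B, 7 of H3 and 4 of H4, the core histones around which DNA is wound. The rule used names and gene class only, not expression. GENCODE release 29 lists 71 protein-coding genes with such symbols, among them all 36 members. The other 35 had no row that met the rule and were not analysed here. RNA was sequenced from HepG2, a hepatocyte-like line derived from a human liver tumour, in 3 libraries of cells given 50 µM ellagic acid (EA), a plant polyphenol, and 3 libraries of cells given an equal volume of the solvent DMSO. Both groups were harvested at 24 h from the same line in serum-containing medium. The labels do not say whether replicates were separate cultures, so the p-values measure only how far these libraries differ, a spread that may be technical.

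Clustered histone genes supply most of the histone protein that packages newly copied DNA. Their transcription peaks in S phase, and their main transcripts end in a short stem-loop rather than a poly(A) tail. Stem-loop binding protein, SLBP, recognises that element, and the U7 small nuclear ribonucleoprotein directs the cut behind it. Several of these genes also make polyadenylated transcripts that run past the stem-loop, a form known from differentiated cells and cells that have stopped dividing. Unclustered variants such as H3.3 and H2A.Z have introns and poly(A) tails and are made throughout the cell cycle.

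The stem-loop is shown because it is the transcript feature that sets this family apart. The sequences are from GENCODE 29 transcripts (GRCh38, sense strand, written with T), with the 4-base loop in capitals.
HIST1H2AC, HIST2H2BE and 9 other members: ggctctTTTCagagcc
HIST1H2BC, HIST1H2BD and HIST3H3: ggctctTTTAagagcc
HIST1H4H, HIST1H4J and HIST4H4: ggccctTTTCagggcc
HIST1H2AG: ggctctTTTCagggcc
The search was for a stem with the arms GGNNCT and AGNNCC around the loop TTTN, on the sense strand, and it was met in transcript models of 18 of 36 members (50.0%), against 52 of 19684 protein-coding genes (0.264%). The 52 include these 18 members, and other clustered histone genes were not left out of them. The models of the other 18 members, including HIST1H1C and HIST1H4C, hold no such letters. Several of these are short (381 bases for HIST1H2BK, 390 for HIST2H2AC, 411 for HIST1H3D and 642 for HIST1H1C) and may stop before it. Its absence from a model therefore does not show that the gene lacks a stem-loop. The submitters' annotation release is not given. How far past the stem-loop reads were counted is therefore not known for any member.

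A second set of sequences is shown because H2A and H2B genes often lie head to head. Among the 34 members with a RefSeq promoter entry (GRCh38.p14), 6 divergent pairs had starts under 1000 bases apart, and 4 of these pairs had both genes tested. The stretch between both starts is given on the strand of the H2A gene, with matches to 3 promoter motifs in capitals, searched on both strands. These were the TATA box (TATAAA), the pentamer bound by the factor NF-Y (CCAAT) and the octamer bound by the factor OCT1 (ATTTGCAT). The build differs from the hg19 build of the counts.
HIST1H2BC and HIST1H2AC, chr6:26123927-26124171, GRCh38.p14, plus strand: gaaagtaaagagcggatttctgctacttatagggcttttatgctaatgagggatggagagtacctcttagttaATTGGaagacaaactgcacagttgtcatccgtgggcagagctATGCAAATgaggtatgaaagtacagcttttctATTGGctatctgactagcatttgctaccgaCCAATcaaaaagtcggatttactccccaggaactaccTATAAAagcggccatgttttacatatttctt
HIST2H2BE and HIST2H2AC, chr1:149886683-149886917, GRCh38.p14, plus strand: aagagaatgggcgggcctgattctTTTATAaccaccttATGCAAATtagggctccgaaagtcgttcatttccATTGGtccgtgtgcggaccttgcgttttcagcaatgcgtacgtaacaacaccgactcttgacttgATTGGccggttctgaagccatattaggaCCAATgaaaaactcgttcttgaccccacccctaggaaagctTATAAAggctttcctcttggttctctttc
HIST1H2BJ and HIST1H2AG, chr6:27132796-27133042, GRCh38.p14, plus strand: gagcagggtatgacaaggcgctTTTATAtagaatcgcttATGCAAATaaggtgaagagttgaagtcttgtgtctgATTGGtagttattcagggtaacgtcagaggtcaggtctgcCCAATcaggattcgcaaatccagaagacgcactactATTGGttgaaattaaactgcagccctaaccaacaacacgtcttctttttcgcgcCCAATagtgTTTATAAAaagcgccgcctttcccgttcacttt
HIST1H2BL and HIST1H2AI, chr6:27807930-27808172, GRCh38.p14, plus strand: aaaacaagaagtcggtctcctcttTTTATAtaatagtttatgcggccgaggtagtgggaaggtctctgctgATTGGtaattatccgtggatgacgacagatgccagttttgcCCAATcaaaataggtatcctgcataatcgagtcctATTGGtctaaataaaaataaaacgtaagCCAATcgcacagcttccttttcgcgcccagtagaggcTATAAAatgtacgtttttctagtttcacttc
The stretch between HIST1H2BL and HIST1H2AI holds 0 octamers and the other 3 hold 1 each. In the RefSeq promoter windows around each start, TATAAA on either strand occurred for 24 of 34 members (70.6%), against 11.5% of all 35116 windows. CCAAT occurred for 31 members (91.2%, against 34.6%) and the octamer for 13 (38.2%, against 1.77%). The octamer was found for 6 of 9 H2A genes, 6 of 10 H2B genes and 1 of 6 H3 genes, and for 0 of 6 H1 genes and 0 of 3 H4 genes. None of the 3 motifs contains another, TATAAA can overlap its own match on the other strand (as beside HIST1H2AG), and the windows of divergent partners share sequence. HIST1H3D and HIST1H2AD have the same window, so the 1 octamer of the H3 genes is also counted for an H2A gene.

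Reads assigned to genes numbered 15738089 to 19202292 in the EA libraries and 22987425 to 25973621 in the DMSO libraries. Levels are given as CPM, counts scaled to a library of fixed size by its TMM-scaled total. Where a library had 0 reads of a gene, its level could still be as high as 0.158 to 0.186 CPM with EA and 0.117 to 0.13 CPM with DMSO (3 reads, counting error only). The 9 hepatocyte markers, which check the label, summed to 13100 to 13700 CPM with EA and 49100 to 51900 CPM with DMSO. Of 4 leukocyte markers, PTPRC, CD3E and CD68 had 0 reads in all libraries, and the list summed to 0.0621 to 0.475 CPM with EA and 1.43 to 1.91 CPM with DMSO. The 4 fibroblast markers, with COL1A2 at 0, summed to 0.37 to 0.844 CPM with EA and 0.661 to 1.26 CPM with DMSO, and the 3 endothelial markers to 3.07 to 3.91 CPM with EA and 2.32 to 2.43 CPM with DMSO. EA replicate 3 lay furthest from the other EA libraries (r = 0.9877 and 0.9887 in log2 CPM across genes, against 0.9935 between EA replicates 1 and 2), so values without it are given beside the members and sums that it moves most.

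Reads from clustered histone genes were several times more frequent with EA, while most of the individual genes had few or no reads. Summed over the 36 genes they reached 222.7, 240.4 and 353.1 CPM in EA libraries, against 50.71, 50.06 and 50.67 CPM in DMSO libraries, a ratio of means of 5.39. The groups did not overlap, and the highest EA value was that of replicate 3. In bulk RNA a change in each cell and a change in the share of cells that make a transcript cannot be told apart, and levels are relative to all other genes. Selection of RNA by poly(A) tail is not stated in the labels, so which transcript forms these reads come from is not known. No p is given for sums over members.

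Enough reads for the test (filterByExpr in edgeR) were present for 16 of the 36 members. These were 1 of 6 H1 genes, 4 of 9 H2A genes, 7 of 10 H2B genes, 1 of 7 H3 genes and 3 of 4 H4 genes. A further 13 had between 1 and 39 reads over all 6 libraries, and 7 had 0. HIST2H2AC, at 69 reads, was the tested member with the fewest reads, and HIST2H2AA3, at 39, had the most reads of those left out. Of the 16, 12 were higher with EA (75.0%) at an adjusted p under 0.05 (quasi-likelihood F test of edgeR, Benjamini-Hochberg adjusted over all genes), against 40.5% of all 15648 genes tested. Lower with EA were 2 of the 16, against 40.5% of all genes tested, and 2 were not called, while 81% of all genes were called in either direction. The 3 EA values lay above the 3 DMSO values for 13 of the 16 (41.4% of all genes tested) and below them for 3 (41.6%). The median log2 fold change of the 16 was 1.18, against 0.00 for all genes tested. A filter on reads favours genes that are high in 1 group. Only 12 of the 16 stood at its minimum of 0.474 CPM in all 6 libraries, and of these 11 were higher with EA, 0 lower and 1 not called.

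**Figure D1:**
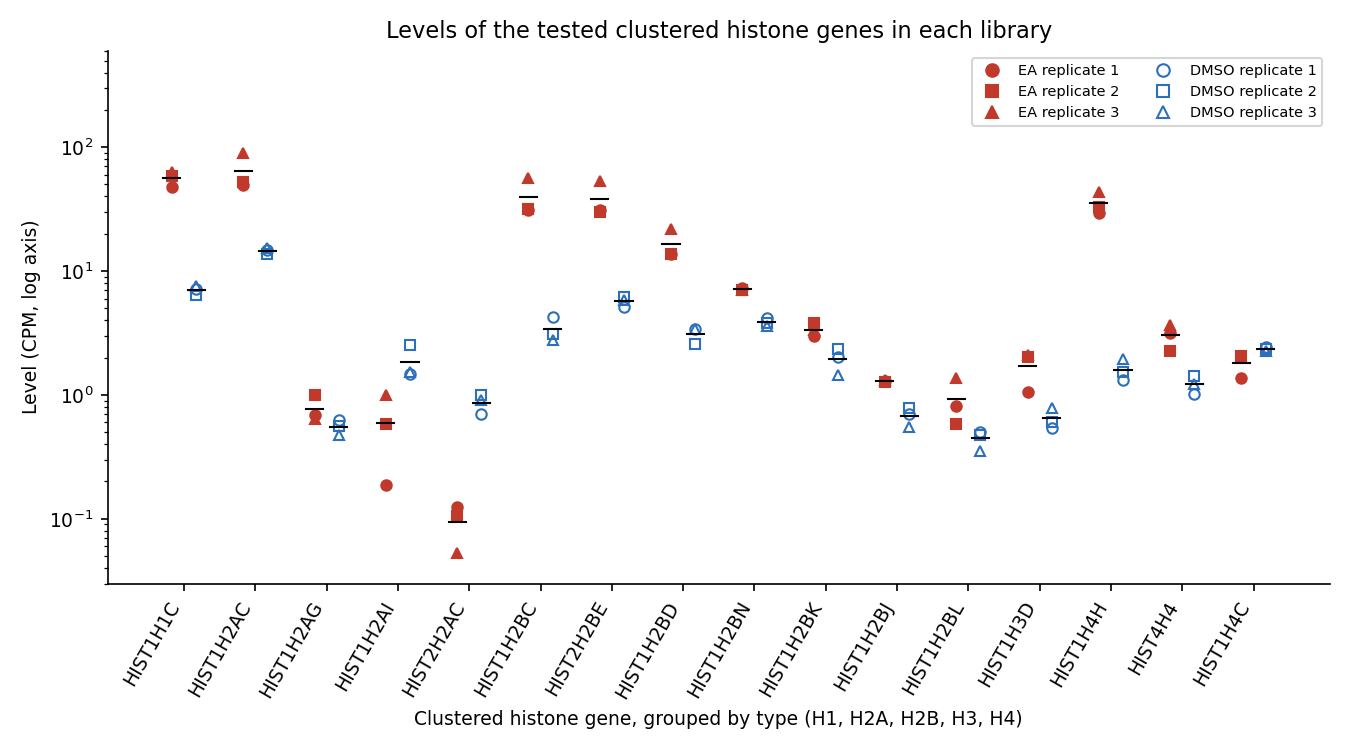
Level in CPM (log axis) of the 16 tested clustered histone genes in each library, with EA (filled) left of DMSO (open) and a line at each group mean (n = 3). The 6 genes above 10 CPM with EA all stand above their DMSO values, whereas HIST1H2AI and HIST2H2AC stand below them. The former were grouped by their EA level and the latter were tested through the DMSO libraries, so selection favours this contrast.

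Linker histone H1 compacts chromatin by binding where DNA enters and leaves the nucleosome. HIST1H1C, which encodes H1.2, an H1 subtype found in most somatic cells, was the 1 tested H1 gene. It stood at 48.01, 58.44 and 63.21 CPM in EA libraries, against 7.117, 6.431 and 7.620 CPM in DMSO libraries. Every EA value was more than 6 times every DMSO value. Its log2 fold change was 3.002 (SE 0.12, adjusted p = 3.70e-12), with means of 56.6 ± 7.77 CPM with EA and 7.06 ± 0.597 CPM with DMSO (SD, n = 3 each). HIST1H1C shared 0 of its 150-base stretches with another annotated gene. The testis H1 gene HIST1H1T had 17 reads over the EA libraries and 1 over the DMSO libraries, a ratio of 23.4 (95% counting interval 3.66 to 977). HIST1H1A, HIST1H1B and HIST1H1D had 5, 4 and 5 reads in all, and HIST1H1E had 0.

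The H2A genes went both ways. HIST1H2AC, the H2A gene with the most reads, stood at 49.07, 51.94 and 89.81 CPM with EA, against 14.82, 13.73 and 15.28 CPM with DMSO. All EA values exceeded all DMSO values, and EA replicate 3 was 1.78 times the mean of EA replicates 1 and 2. Its log2 fold change was 2.12 (SE 0.27, adjusted p = 0.000547), and 1.76 without EA replicate 3. HIST2H2AC, from the HIST2 group on chromosome 1, had 2, 2 and 1 reads in EA libraries, against 18, 23 and 23 reads in DMSO libraries. Of the tested members it fell furthest, with a log2 fold change of -3.14 (SE 0.48, adjusted p = 2.23e-05). HIST1H2AI had 3, 11 and 19 reads with EA, against 38, 58 and 39 reads with DMSO, and its log2 fold change was -1.58 (SE 0.41, adjusted p = 0.00277), or -2.20 without EA replicate 3. Both genes met the minimum level of the filter in all 3 DMSO libraries but not in all EA libraries, so they were tested through the group in which they are high, and their direction lends no support to a count. Of the 150-base stretches of HIST1H2AI, 51.7% also occur in HIST1H2AJ, so its reads may be split between the copies or left out of the count. HIST1H2AG had 11, 19 and 12 reads with EA, against 16, 13 and 12 reads with DMSO. Its log2 fold change of 0.49 (SE 0.34, adjusted p = 0.189) was not called. HIST2H2AA3, all of whose 150-base stretches occur in HIST2H2AA4, had 29 reads over the EA libraries and 10 over the DMSO libraries, a ratio of 3.99 (95% counting interval 1.89 to 9.17). HIST2H2AB and HIST1H2AD had 4 reads and 1 read, and HIST1H2AA and HIST3H2A had 0.

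All 7 tested H2B genes were higher with EA, against 40.5% of all genes tested, and they fell into a strongly and a weakly changed set. Among them, HIST1H2BL was tested through the EA libraries, in which it is high, so its direction lends no support to the count. The calls of HIST1H2BL and HIST1H2BK were also lost in some alternatives. HIST1H2BC stood at 31.24, 31.42 and 56.62 CPM with EA, against 4.278, 3.085 and 2.789 CPM with DMSO, a log2 fold change of 3.55 (SE 0.34, adjusted p = 0.000121). HIST2H2BE stood at 30.81, 29.83 and 53.40 CPM with EA, against 5.094, 6.214 and 5.853 CPM with DMSO, a log2 fold change of 2.74 (SE 0.27, adjusted p = 7.70e-05). HIST1H2BD stood at 13.85, 13.75 and 21.79 CPM with EA, against 3.383, 2.564 and 3.378 CPM with DMSO, a log2 fold change of 2.40 (SE 0.20, adjusted p = 2.28e-07). In all 3 genes EA replicates 1 and 2 lay close together and EA replicate 3 was 1.58 to 1.81 times their mean. Without EA replicate 3 the log2 fold changes were 3.18, 2.38 and 2.12.

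The other 4 H2B genes had log2 fold changes between 0.81 and 1.05. HIST1H2BN stood at 7.267, 6.981 and 7.070 CPM with EA, against 4.161, 3.780 and 3.614 CPM with DMSO, a log2 fold change of 0.88 (SE 0.14, adjusted p = 3.88e-05). Here EA replicate 3 did not stand out. HIST1H2BN overlaps exons of HIST1H2AL on its own strand and of HIST1H2AK on the other, so some of its reads may be theirs. Reads in the overlap may also have been left out of the count. HIST1H2BJ had 21, 24 and 25 reads with EA, against 18, 18 and 14 reads with DMSO, a log2 fold change of 0.94 (SE 0.28, adjusted p = 0.00625). HIST1H2BL, which met the filter's minimum level in all EA libraries but not in all DMSO libraries, had 13, 11 and 26 reads with EA, against 13, 11 and 9 reads with DMSO, a log2 fold change of 1.05 (SE 0.38, adjusted p = 0.0194). The call of HIST1H2BL was lost without EA replicate 3 (log2 fold change 0.60, adjusted p = 0.20), without DMSO replicate 2 (1.07, 0.0516) or DMSO replicate 3 (0.87, 0.0907), in DESeq2 (1.09, 0.0634) and after correction for GC content and transcript length (0.60, 0.184). Over all 13 alternatives run its adjusted p lay between 0.00826 and 0.20. HIST1H2BK averaged 3.37 ± 0.415 CPM with EA and 1.94 ± 0.452 CPM with DMSO (SD, n = 3 each), a log2 fold change of 0.81 (SE 0.22, adjusted p = 0.00305). After the GC and length correction it stood at 0.26 (adjusted p = 0.273; range over alternatives 0.000261 to 0.273). HIST2H2BF had 26 reads over the EA libraries and 3 over the DMSO libraries, a ratio of 11.9 (95% counting interval 3.65 to 61.5), and overlaps FCGR1A on the other strand. HIST1H2BA, known from testis, and HIST3H2BB had 0 reads.

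**Figure D2:**
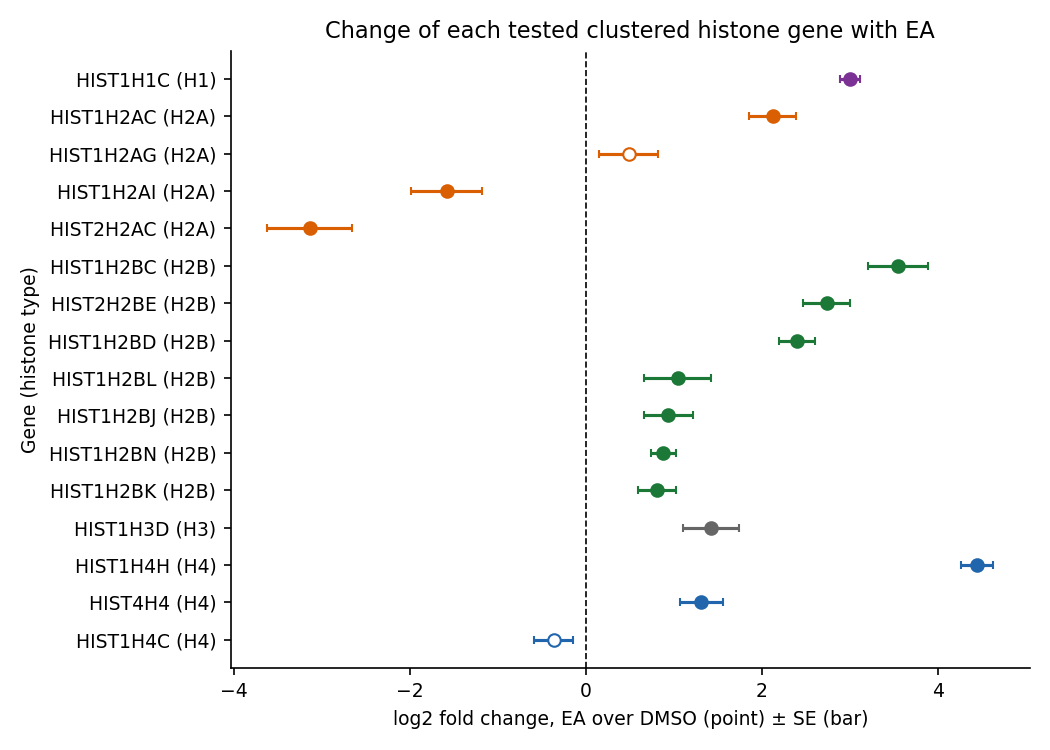
Log2 fold change of EA over DMSO (points) with its SE (bars) for the 16 tested genes, coloured by histone type, where open points are not called and the dashed line marks 0, no change. HIST1H4H lies furthest to the right at 4.45 and HIST2H2AC furthest to the left at -3.14.

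The H3 members gave almost no reads in either group. HIST1H3D, the 1 tested H3 gene, had 17, 38 and 40 reads in EA libraries, against 14, 14 and 20 reads in DMSO libraries. In CPM its EA values were all above its DMSO values, and its log2 fold change was 1.43 (SE 0.32, adjusted p = 0.000693), or 1.24 without EA replicate 3. All of its 150-base stretches also belong to AL031777.3, an annotated transcript on the same strand, so this value is uncertain. HIST1H3J had 7 reads over all libraries, HIST2H3D 3, HIST2H3A 2 and HIST2H3C 1. HIST3H3, a testis form, and HIST2H3PS2 had 0. All 150-base stretches of HIST2H3A and HIST2H3C occur in another HIST2H3 gene, so their reads may be split between copies or left out of the count. Their low counts therefore do not show low levels.

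HIST1H4H had the largest log2 fold change of the 16 tested members. It stood at 29.63, 32.58 and 43.21 CPM with EA, against 1.322, 1.521 and 1.964 CPM with DMSO. The lowest EA value was more than 10 times the highest DMSO value. Its log2 fold change was 4.45 (SE 0.18, adjusted p = 1.20e-10), and 4.25 without EA replicate 3. HIST4H4, which lies apart from the other groups on chromosome 12, stood at 3.168, 2.274 and 3.641 CPM with EA, against 1.011, 1.434 and 1.218 CPM with DMSO, a log2 fold change of 1.31 (SE 0.24, adjusted p = 0.000141), or 1.12 without EA replicate 3. HIST1H4C stood at 1.366, 2.063 and 2.005 CPM with EA, against 2.450, 2.346 and 2.278 CPM with DMSO. Its EA values were all below its DMSO values, yet its log2 fold change of -0.37 (SE 0.22, adjusted p = 0.133) was not called. After the GC and length correction it stood at -0.94 and was called (adjusted p = 0.00166; range over alternatives 0.00166 to 0.376). HIST1H4J had 10 reads over the EA libraries and 16 over the DMSO libraries, a ratio of 0.859 (95% counting interval 0.349 to 2.01), and 72.8% of its 150-base stretches occur in HIST1H4K. These H4 genes encode the same type of core histone, and the H4 sum was held mostly by HIST1H4H with EA, while HIST1H4C was not called.

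By type, the summed H1 level was 57.0 ± 8.08 CPM with EA and 7.14 ± 0.551 CPM with DMSO (SD, n = 3 each). H2A stood at 65.6 ± 23.2 CPM with EA and 18.05 ± 0.286 CPM with DMSO, and H2B at 107 ± 33.0 CPM with EA and 19.2 ± 1.08 CPM with DMSO. H3 stood at 1.85 ± 0.637 CPM with EA and 0.726 ± 0.191 CPM with DMSO, and H4 at 40.2 ± 7.74 CPM with EA and 5.40 ± 0.374 CPM with DMSO. The ratios of means were 7.99, 3.64, 5.60, 2.55 and 7.44 for H1, H2A, H2B, H3 and H4. Without EA replicate 3, a comparison added after the values were seen, they were 7.495, 2.90, 4.61, 2.26 and 6.63, and 4.59 for all members together. These sums include every member with a read, whatever the filter.

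**Figure D3:**
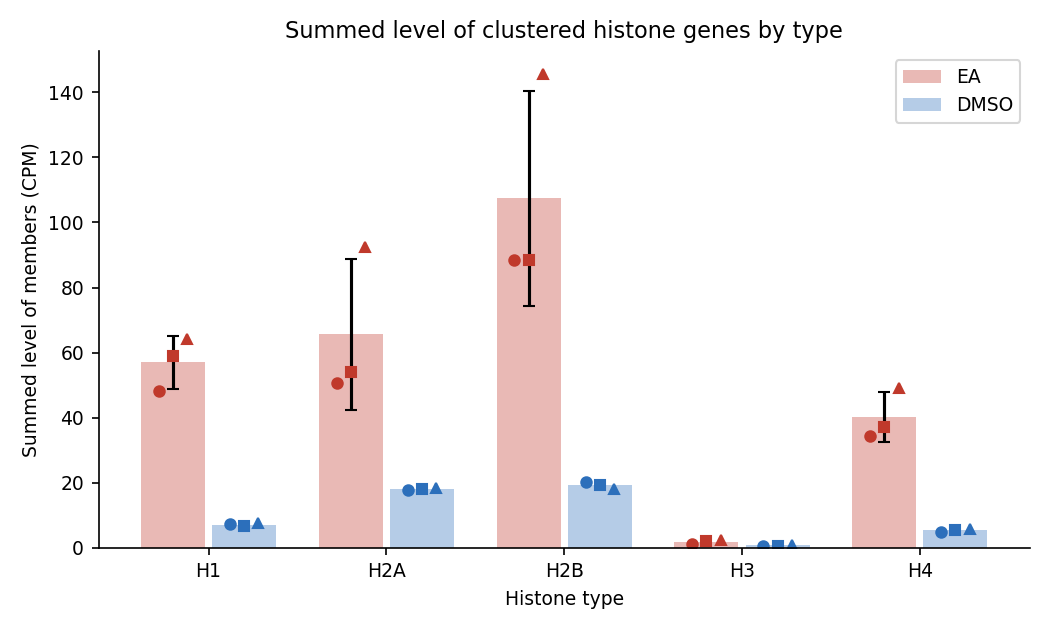
Summed CPM of the members of each histone type, EA left of DMSO, with bars for the mean, error bars for the SD (n = 3) and points for single libraries (circle, square and triangle for replicates 1, 2 and 3). For H1, H2A, H2B and H4 the 3 EA points lie well above the DMSO points, and replicate 3 is the highest EA point in each type.

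A few genes carried the rise. HIST1H2AC, HIST1H1C, HIST2H2BE, HIST1H2BC, HIST1H4H and HIST1H2BD held 91.7% of member reads with EA and 70.4% with DMSO. The other 30 genes summed to 20.06, 22.48 and 25.06 CPM with EA, against 14.70, 16.51 and 13.79 CPM with DMSO, a ratio of means of 1.502. The 6 were picked by their reads over all libraries, which weights them toward the group in which they are high. Per kilobase of annotated exon, HIST1H1C led in both groups at 88.1 CPM per kb with EA and 11.0 CPM per kb with DMSO. HIST1H4H ranked 6 of the 16 with EA (16.2 CPM per kb) and 12 with DMSO (0.741 CPM per kb). HIST1H4C ranked 9 with EA (4.16 CPM per kb) and 3 with DMSO (5.42 CPM per kb). Exon lengths are from GENCODE 29, and reads may cover only part of a model.

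The members were also described by the length of their annotated end past the stem-loop. Of the 7 tested members with 100 or more bases past it, 6 were higher, 0 lower and 1 not called (log2 fold changes 0.49 to 4.45, median 2.12). Of the 3 with a shorter end, 2 were higher and 1 lower (-1.58 to 2.40). Of the 6 with no stem-loop in the model, 4 were higher, 1 lower and 1 not called (-3.14 to 3.002, median 0.87). Such a model may stop before the stem-loop, so this is a group of models and not of genes without it. By promoter octamer, 6 of 8 members with it were higher, 1 lower and 1 not called, and of 7 without it 6 were higher and 1 lower. These subsets include the 4 members that passed the filter through 1 group alone (HIST1H2AG, HIST1H2AI, HIST2H2AC and HIST1H2BL) and were not tested against each other. Of all 16 tested members 75.0% were higher, while 40.5% of all genes tested were higher and 40.5% lower. The part of either feature in the change was not tested.

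The calls of both partners are given for the 4 divergent pairs whose sequences are shown. HIST1H2BC and HIST1H2AC both rose, by log2 fold changes of 3.55 and 2.12. HIST1H2BJ rose by 0.94, while its partner HIST1H2AG, at 0.49, was not called. In the other pairs the H2B gene was higher and the H2A gene lower, but both of these H2A genes passed the filter through the DMSO libraries and HIST1H2BL through the EA libraries, so these calls are given as values and not as a count. HIST2H2BE stood at 2.74 and HIST2H2AC at -3.14, although their starts lie 235 bases apart. HIST1H2BL stood at 1.05 and HIST1H2AI at -1.58, and here the H2B call depended on single libraries and on the tool. The difference between partners was not tested as such.

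**Figure D4:**
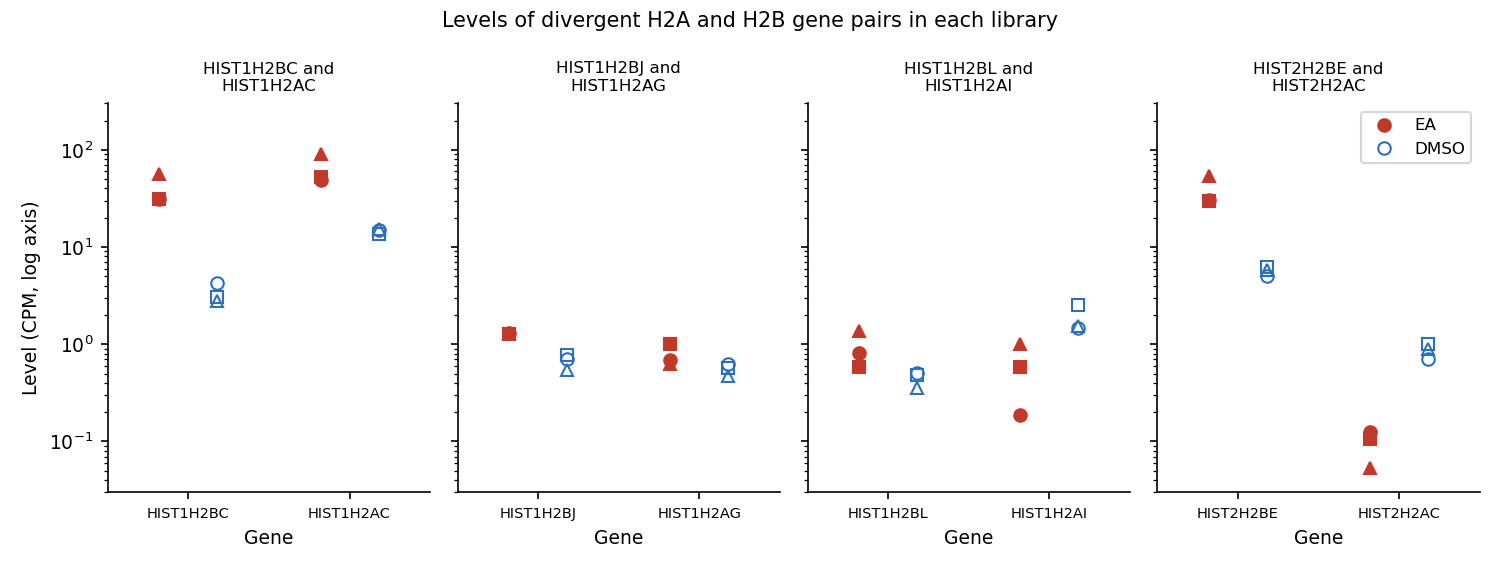
CPM (log axis) of both genes of the 4 tested divergent pairs in each library, EA (filled) left of DMSO (open), with circle, square and triangle for replicates 1, 2 and 3. In the HIST2H2BE and HIST2H2AC pair the EA points lie above DMSO for the H2B gene and below it for the H2A gene.

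EA replicate 3 was set apart in opposite ways for histone and S phase genes. Among the 15 tested members with at least 30 reads over the EA libraries, EA replicate 3 exceeded the mean of EA replicates 1 and 2 in 12. This was 80% of them, against 51.4% of 14846 genes with as many reads. It exceeded that mean by more than 1.4 times in 6 members (40.0%, against 7.19% of those genes). The median ratio was 1.38 in members and 1.01 in those genes. In the S phase list EA replicate 3 was below that mean in 17 of 18 genes, with a median ratio of 0.758. RRM2, a subunit of ribonucleotide reductase, stood at 95.90, 105.4 and 44.85 CPM in EA replicates 1, 2 and 3, and the S phase cyclin gene CCNA2 at 19.87, 18.25 and 6.437 CPM. These 2 were picked after their values were seen. Without EA replicate 3, 11 of 16 tested members were higher and 2 lower, with a median log2 fold change of 1.01. Among all 16444 genes tested in that run, 6794 were higher and 6819 lower.

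Of 18 S phase genes, which serve DNA copying, nucleotide supply or cell cycle control, 17 were lower with EA and 1 was not called. Among all genes tested 40.5% were lower, and the median log2 fold change was -1.58 in the list, against 0.00 for all genes. Thymidylate synthase, TYMS, averaged 14.2 ± 1.01 CPM with EA and 87.3 ± 6.61 CPM with DMSO (SD, n = 3 each). Log2 fold changes were -2.45 for MCM3, -2.24 for MCM5 and -2.19 for MCM6, subunits of the helicase that opens DNA for copying. The medians of clustered histone genes and of S phase genes lay on opposite sides of that of all genes.

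Of 17 genes of the machinery that makes and degrades histone transcripts, 5 were higher, 9 lower and 3 not called (median log2 fold change -0.41). Among all genes tested 81% were called, 40.5% higher and 40.5% lower, so the share called in this list was near the background. ZCCHC6, a uridylyltransferase that marks histone transcripts for decay, averaged 277 ± 24.4 CPM with EA and 80.6 ± 3.78 CPM with DMSO (SD, n = 3 each), a log2 fold change of 1.78 (SE 0.08, adjusted p = 8.13e-12). ZNF473, a zinc finger protein that works with the U7 particle, had a log2 fold change of 1.24 (SE 0.08). CSTF2, a cleavage stimulation factor also used at poly(A) sites, had a log2 fold change of -1.86 (SE 0.09), and the cap-binding complex partner SRRT had a log2 fold change of -1.53 (SE 0.07). Beyond those with the smallest p, 2 genes were picked for their role after their values were seen. SLBP averaged 45.9 ± 4.31 CPM with EA and 73.6 ± 5.06 CPM with DMSO, a log2 fold change of -0.68 (SE 0.08, adjusted p = 2.02e-06). NPAT, the coactivator of clustered histone transcription that cyclin E and CDK2 phosphorylate, averaged 42.6 ± 1.89 CPM with EA and 25.8 ± 0.876 CPM with DMSO, a log2 fold change of 0.72 (SE 0.08, adjusted p = 4.99e-07).

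Of 10 unclustered histone genes tested, 1 was higher, 8 lower and 1 not called, against 40.5% higher and 40.5% lower among all genes tested (median log2 fold change -0.71). H1F0, the linker histone H1.0 that accumulates in differentiated cells, was the one that rose, averaging 962 ± 45.7 CPM with EA and 612 ± 9.72 CPM with DMSO (SD, n = 3 each). Its log2 fold change was 0.65 (SE 0.06, adjusted p = 1.66e-07). H2AFZ, which encodes H2A.Z, averaged 77.7 ± 9.88 CPM with EA and 239 ± 4.22 CPM with DMSO, a log2 fold change of -1.62 (SE 0.08, adjusted p = 7.38e-11). The macroH2A gene H2AFY2 and the H2A.Z relative H2AFV had log2 fold changes of -1.82 and -0.68. H2AFX had 0 reads in all libraries. As the annotation release and multi-mapping rule are not given, this does not show that the gene is silent. Genes of histone chaperones, which carry histones to DNA, were lower in 15 of 18 cases and higher in 3, against the same 40.5% each way among all genes (median -0.95). The HIRA complex member CABIN1, the H2A.Z chaperone ANP32E and the H3 and H4 chaperone NASP had log2 fold changes of -2.11, -2.06 and -1.41, and UBN1, another HIRA complex member, one of 0.88.

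**Figure D5:**
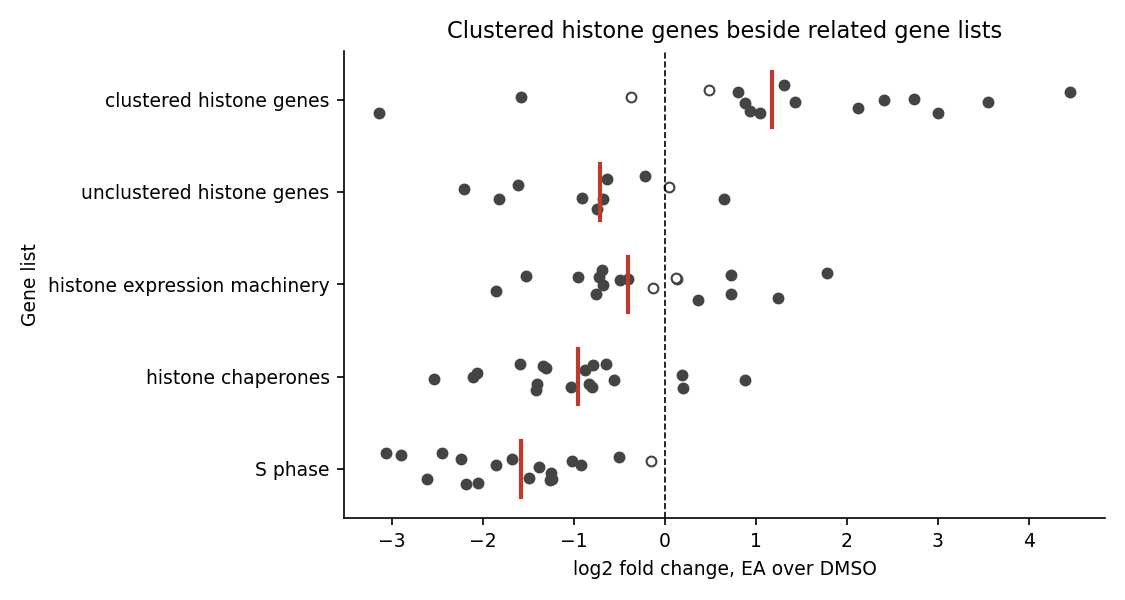
Log2 fold change of EA over DMSO for each tested gene (filled points called, open points not called) in the clustered histone genes and 4 related lists, with a bar at each median and a dashed line at 0, no change. The median lies at 1.18 for the clustered histone genes and between -1.58 and -0.41 for the other lists.

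The other RNAs without a poly(A) tail that were listed and had a row were scarce in every library. Of 14 such RNAs listed, 9 were in the table and 8 had reads. Their sum was 2.422, 2.750 and 1.847 CPM in EA libraries, against 0.8556, 0.6952 and 1.218 CPM in DMSO libraries. RPPH1, RN7SK, RN7SL1, RN7SL2 and SCARNA2 had no row under these names, so such RNA as a whole cannot be judged from this sum. The sum was higher in each EA library than in each DMSO library, and EA replicate 3, the highest in histone level, was the lowest of the EA libraries here. The small Cajal body RNA SCARNA6, the 1 RNA of the list with enough reads to test, had a log2 fold change of 0.93 (adjusted p = 0.0335). Selection of RNA by poly(A) tail is not stated in the labels, and the part of such RNA in the histone result was not tested. Rows of histone pseudogene classes, which resemble the members in sequence, held 161 reads with EA and 79 with DMSO over 19 genes, against 14823 and 3746 reads for the members.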

How the data were processed

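Counts were deposited by the authors as 1 table of whole, unnormalised read numbers per gene for 3 EA and 3 DMSO libraries of HepG2, grouped by the labels. The submitters' processing notes name hg19 as the build and, as tools, HTSeq 0.6.1, HISAT, cutadapt 1.9.1 and bcl2fastq 2.17.1.14. Strand setting, multi-mapping rule and annotation release are not given in them. Genes were filtered with filterByExpr (15648 kept), scaled by TMM and compared with edgeR 4.0.16 (R 4.3.3, quasi-likelihood F test, robust) with Benjamini-Hochberg adjustment over all genes tested. The SE is the log2 fold change over the square root of F. CPM uses TMM-scaled library totals. The fit was tested on simulated data. Intervals and floors cover counting error only. Lengths, stem-loops and overlaps came from GENCODE 29 and promoters from RefSeq, joined by gene ID. The members and lists were chosen with earlier results of these data known. All tested members are named; from other lists, the 4 called genes with the smallest p, with exceptions marked. All 6 value columns were used. DESeq2 1.42.0, other scalings, filters, a GC and length correction, a replicate block and each library left out were alternatives.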

Additional observations from a re-analysis of the deposited data

How the results depend on the processing

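Direction held for all 16 tested members in the alternatives in which they could be fitted, and 13 kept their call in every one; HIST1H2BL, HIST1H2BK and HIST1H4C did not. Across the alternatives that keep all 6 libraries, 10 to 15 members were higher and 1 to 3 lower with EA. The 15 came from the run without a filter, in which 29 members were tested and 7513 of 32015 genes were higher. The stricter filter left 13 members tested, and the other runs 16. In every run 49.6% to 51.2% of all genes called were higher. The lower count was 1 with the stricter filter of 1 CPM in 3 libraries, under which HIST2H2AC was not tested, and 3 after the GC and length correction. Leaving out single libraries gave 11 to 13 higher and 2 lower, of 16 or 17 members tested. On unscaled library sizes, sums by type moved by less than the spread between libraries. Without EA replicate 3 the log2 ratios of means were 1.18 to 2.91. EA replicate 3 itself widens the spread between libraries, so that spread cannot serve to judge this shift. The replicate numbers shared across groups did not pair the samples (same-number correlations of deviations -0.0839, 0.0273 and -0.0154), and with the replicate block 12 members were higher and 2 lower. Too few reads for the test were present for 6 of 7 H3 and 5 of 6 H1 genes, so a difference in them was not tested at this depth. For HIST1H1T, with 17 reads with EA and 1 with DMSO, only a counting interval is given.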
